A study of Mus musculus with 9 samples.

Results

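The genes examined were 10 factors of cytoplasmic mRNA decay: the ZFP36 family (*Zfp36*, *Zfp36l1*, *Zfp36l2*), the CCR4-NOT subunits *Cnot1*, *Cnot6* and *Cnot7*, the deadenylase subunit *Pan3*, the decapping enzyme *Dcp2*, and the RNA-binding proteins *Elavl1* and *Pum2*. They were found by gene symbol, and all 10 were among the 37411 symbols of the deposited tables. RNA-Seq had been run on GT1-7-OX1 cells, a mouse hypothalamic line that secretes GnRH and derives from a tumour driven by SV40 T-antigen under the GnRH promoter. All 9 samples carried the human OX1 orexin receptor, delivered by lentivirus under a CMV promoter together with copGFP, and the cells with the highest GFP signal had been expanded. The medium was exchanged for fresh, warm medium that held vehicle (water) for 8 h (3 samples), 200 nM orexin A (OxA) for 3 h (3 samples) or 200 nM OxA for 8 h (3 samples). No vehicle sample was collected at 3 h, so in the 3 h comparison the effect of OxA and that of a shorter time since the medium change cannot be told apart, whereas at 8 h the times matched.

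Messenger RNAs usually decay from the poly(A) tail. The tail is shortened by the PAN2-PAN3 and CCR4-NOT deadenylases, the cap is then removed by DCP2, and the body is degraded from the 5′ end by XRN1 or from the 3′ end by the exosome. ZFP36 proteins (ZFP36 is also called tristetraprolin) bind AU-rich elements in the 3′ UTR of short-lived mRNAs and bring in CCR4-NOT, while ELAVL1 (HuR) binds related AU-rich sequences and is best known for stabilizing mRNAs. *Zfp36* itself is an immediate early gene in many cell types, and its own mRNA holds AU-rich elements.

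The 3′ UTRs of *Zfp36* and *Zfp36l2* are shown first because these were the members with the largest changes. The letters TATTTAT, the core to which ZFP36 proteins bind, occurred 3 times in the 3′ UTR of each of *Zfp36*, *Zfp36l1* and *Zfp36l2*, counted on the transcript strand of the GENCODE M21 models (GRCm38). Of 21022 genes with a 3′ UTR, 4.07% held at least 3 copies and 27.4% at least 1. In the following 29-base stretches, written 5′ to 3′ on the minus strand, capitals mark TATTTAT, and the first 2 stretches of *Zfp36* overlap.
Zfp36 site 1 (chr7:28376966-28376994): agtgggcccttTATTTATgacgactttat
Zfp36 site 2 (chr7:28376951-28376979): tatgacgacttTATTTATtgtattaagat
Zfp36 site 3 (chr7:28376926-28376954): agattttatagTATTTATatatattgggt
Zfp36l2 site 1 (chr17:84184914-84184942): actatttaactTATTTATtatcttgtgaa
Zfp36l2 site 2 (chr17:84184866-84184894): tgtccatactgTATTTATcgagtatgatg
Zfp36l2 site 3 (chr17:84184680-84184708): attgtatgtaaTATTTATttcattaattt
In *Zfp36* all 3 copies lay within the last part of a 3′ UTR of 774 bases, whereas the 3′ UTR of *Zfp36l2* had 1822 bases. Among the other members, *Elavl1* held 8 copies in 4218 bases, *Cnot6* and *Dcp2* held 2 each, *Cnot7*, *Pan3* and *Pum2* held 1 each and *Cnot1* held 0. The Pumilio element TGTANATA, which PUM proteins bind, occurred 2 times in *Pum2* and 1 time each in *Cnot1*, *Cnot7* and *Dcp2*, and 23.2% of all genes held at least 1.

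Promoter windows from 250 bases before to 50 after the start were available from RefSeq (GRCm38.p6) for 6 of the 10 members. Both strands were searched for the CArG box, the AP-1 letters TGANTCA, the CRE letters TGACGTCA, the EGR letters GCGNGGGCG and the NF-kB site. *Zfp36* had a CArG box and an EGR match, which did not overlap each other, and *Zfp36l1* had an AP-1 match, while none of the 5 motifs was found in the windows of the other 4 members. Of 32851 promoter windows, 1.63% held a CArG box, 5.55% the EGR letters and 7.81% the AP-1 letters. The 120 bases before the *Zfp36* start (chr7:28379229-28379348, minus strand) are printed because serum response factor binds CArG boxes and EGR1 binds GCGNGGGCG, and capitals mark the EGR match and then the CArG box.
Zfp36 promoter: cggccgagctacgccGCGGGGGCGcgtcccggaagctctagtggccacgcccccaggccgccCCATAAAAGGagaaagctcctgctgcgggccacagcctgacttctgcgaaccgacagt
The EGR match ended 97 bases and the CArG box 49 bases before the start. These are matches of letters, and binding was not measured.

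Depth was similar across samples, with 16217786 to 20445364 counts assigned to genes. Distances between samples of a group (36.4 to 42.6, on log2 CPM, counts scaled to the depth of the library, over the genes kept) were all smaller than distances between groups (51.5 to 71.4). Of 8 neuronal markers, 7 exceeded 2 TPM (transcript abundance scaled by gene length and by the total of the sample) in vehicle, *Stmn2* being at 0.019. Of 11 glial, endothelial, blood and connective tissue markers, the collagen gene *Col1a1* alone did so (7.52 TPM). The summed level of these 11, most of it *Col1a1*, was 7.51 to 10.2 TPM in vehicle, 7.70 to 8.22 at 3 h and 6.69 to 8.12 at 8 h. The summed level of the 8 neuronal markers, most of it *Gnrh1*, was 3808 to 4389 TPM in vehicle, 3953 to 4186 at 3 h and 3106 to 3279 at 8 h, so the 8 h samples lay below the others. *Gnrh1*, the GnRH precursor gene, was lower at 8 h (0.787-fold, adjusted p = 1.73e-05), the microtubule gene *Map2* was lower at 3 h (0.825-fold, adjusted p = 0.000379) and at 8 h (0.739-fold, adjusted p = 6.59e-06), and the tubulin gene *Tubb3* was lower at 3 h (0.781-fold, adjusted p = 0.000463). The part of these differences in the results below was not tested.

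Levels between genes were compared on the deposited TPM, which are scaled by gene length. In vehicle the RNA-binding protein *Pum2* was the highest member at 108 ± 5.03 TPM (SD, n = 3), followed by *Cnot1*, the scaffold of CCR4-NOT, at 93.3 ± 2.58 TPM. *Elavl1* (64.0 ± 0.328 TPM), *Pan3* (56.7 ± 1.78 TPM) and *Dcp2* (51.5 ± 1.56 TPM) came next, and the deadenylase subunits *Cnot7* (44.1 ± 2.35 TPM) and *Cnot6* (39.6 ± 1.68 TPM) after them. These 7 factors all exceeded the level of at least 89.4% of the genes in the table. The ZFP36 family was far lower, with *Zfp36* at 8.33 ± 1.08 TPM and *Zfp36l2* at 7.47 ± 0.774 TPM. The sample ranges of *Zfp36* and *Zfp36l2* overlapped, and those of all other neighbours in this order were apart. *Zfp36l1* was last, with 0.041 TPM in vehicle replicate 3 and 0 in the other 8 samples.

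*Zfp36* (chromosome 7, 28376784 to 28380253, minus strand) was higher after 3 h of OxA than in vehicle and lower again at 8 h. Its normalized counts (raw counts divided by TMM-adjusted library sizes and brought back to their mean) were 111, 109 and 137 in vehicle, 201, 209 and 185 after 3 h, and 147, 150 and 119 after 8 h. All 3 samples at 3 h lay above every sample of the other groups, while 8 h replicate 3 lay inside the vehicle range. At 3 h the level was 1.67-fold that of vehicle (log2 fold change 0.74, SE 0.12, 95% interval 0.48 to 1.00, adjusted p = 4.15e-05 by the quasi-likelihood test of edgeR, as for all adjusted p-values below unless another tool is named). At 8 h it was 1.17-fold that of vehicle, which did not pass the threshold of 0.05 (log2 fold change 0.22, interval -0.06 to 0.51, adjusted p = 0.235). The fall from 3 h to 8 h was itself tested, and the log2 fold change of *Zfp36* between these times was -0.51 with an SE of 0.12 (adjusted p = 0.00276). These values come from bulk RNA, in which more expression per cell and more expressing cells cannot be told apart.

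*Zfp36l2* (chromosome 17, 84183931 to 84187947, minus strand), the paralog at a similar level, was higher at both times. It had 188, 222 and 219 normalized counts in vehicle, 270.3, 273 and 296 after 3 h and 275, 281 and 279 after 8 h. No OxA sample at either time reached down to the vehicle range. It was 1.34-fold higher at 3 h (log2 fold change 0.42, SE 0.10, adjusted p = 0.00162) and 1.32-fold higher at 8 h (log2 fold change 0.41, SE 0.10, adjusted p = 0.00255). Between 3 h and 8 h its log2 difference was -0.01 with an interval of -0.19 to 0.17 (adjusted p = 0.948). *Zfp36* thus had a tested difference between the times and *Zfp36l2* did not, but whether these time courses differ from each other was not tested.

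*Zfp36l1* (chromosome 12, 80107754 to 80113013, minus strand), the paralog known in other tissues for control of differentiation, received 1 count in vehicle replicate 3 and 0 in the other 8 samples. A count of 0 allows up to 3 counts, or 0.147 to 0.185 CPM in these libraries, so no expression above that limit was detected, lower expression could not be seen at this depth, and no fold change was computed. The strand setting of the counting was not given in the sources used here, and 55.9% of the exon bases of *Zfp36l1* are shared with the opposite-strand lincRNA *Gm26669*. If strand had been ignored, reads in the shared part (1672 of 2990 exon bases) would have been ambiguous and left out. Reads in the remaining exon bases would still have been counted. *Gm26669* also had 0 counts in every sample. For the other members, exons of opposite-strand genes covered at most 4.2% of the exon bases.

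**Figure D1:**
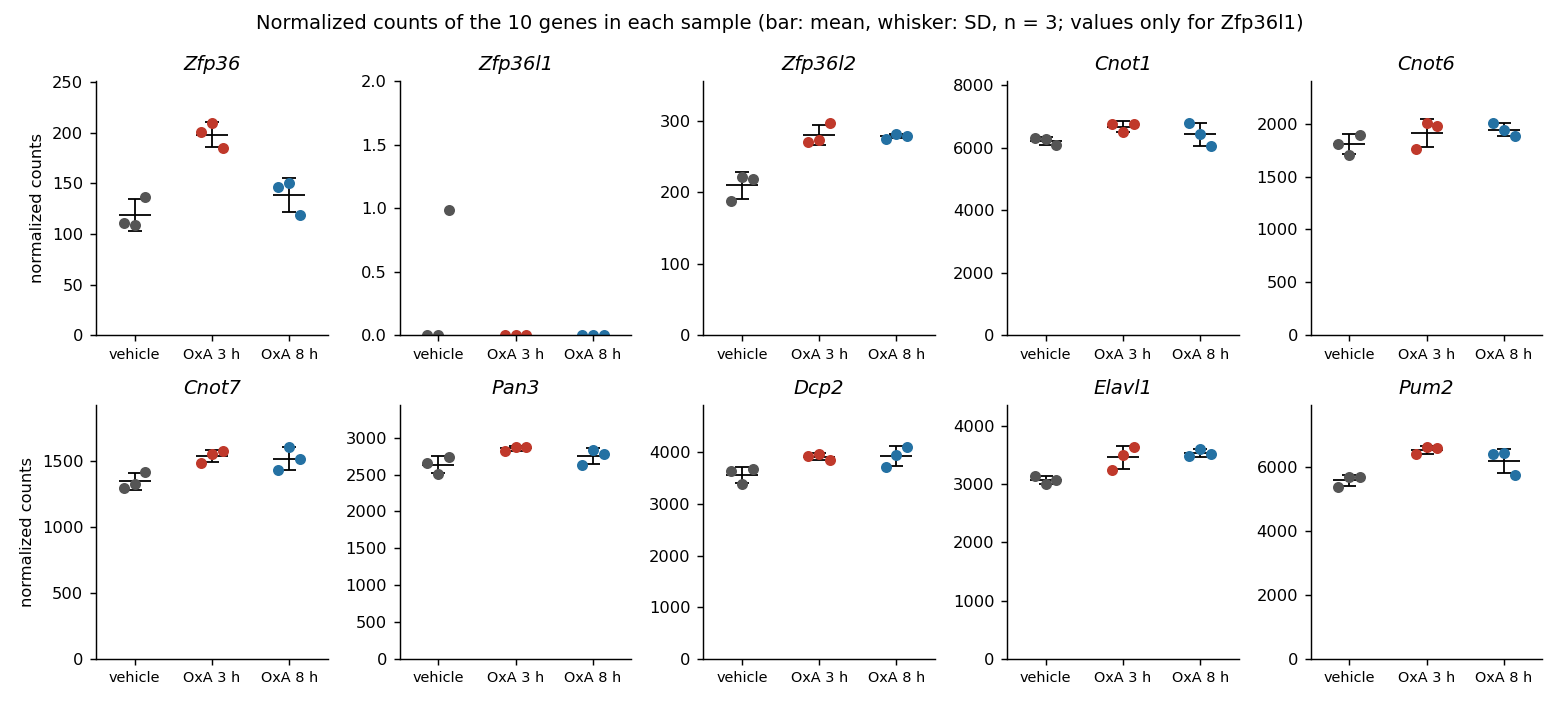
Normalized counts (vertical axes, from 0) of the 10 members in the 3 vehicle, 3 OxA 3 h and 3 OxA 8 h samples. Points are samples, bars means and whiskers SD (n = 3), with points alone for Zfp36l1. Zfp36 is highest in the 3 h samples (185 to 209), Zfp36l2 is raised at both times, and the other 7 expressed members differ between groups by small steps.

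Summed over *Zfp36*, *Zfp36l1* and *Zfp36l2*, TPM stood at 15.8 ± 1.57 in vehicle, at 22.7 ± 0.555 at 3 h and at 18.9 ± 1.27 at 8 h (SD, n = 3, given as a description). *Zfp36* made up 53.7%, 49.2% and 55.1% of this sum in the vehicle samples, 59.4%, 60.2% and 55.1% in the 3 h samples and 51.3%, 51.2% and 45.6% in the 8 h samples. The 3 h and vehicle samples met at 55.1%, so the makeup overlapped between these groups although the sum did not. *Zfp36l2* made up the rest apart from 0.236% for *Zfp36l1* in vehicle replicate 3. A further gene of the family, *Zfp36l3*, was not among the members and not in this sum. It stood at 0.997 ± 0.172 TPM in vehicle, 0.712 ± 0.0388 at 3 h and 0.589 ± 0.348 at 8 h. Its differences from vehicle did not pass (0.756-fold at 3 h, adjusted p = 0.349, and 0.586-fold at 8 h, adjusted p = 0.132, edgeR).

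**Figure D2:**
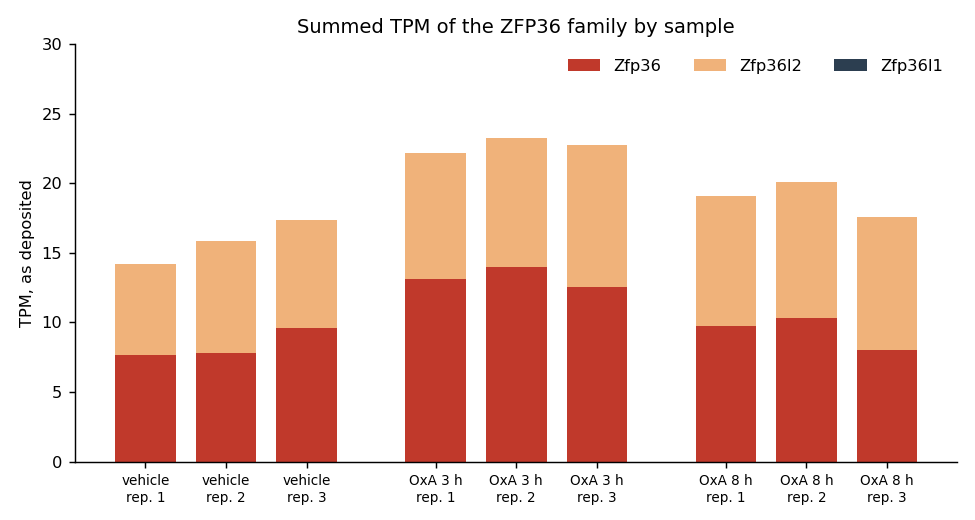
Deposited TPM of Zfp36, Zfp36l2 and Zfp36l1 stacked for each of the 9 samples (vertical axis from 0). The sums are 14.2 to 17.4 TPM in vehicle, 22.1 to 23.3 at 3 h and 17.6 to 20.1 at 8 h, and Zfp36l1 is too low to be seen.

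The CCR4-NOT members moved by small amounts. *Cnot7*, a catalytic deadenylase subunit (chromosome 8, 40492540 to 40515847, minus strand), had 1296, 1324 and 1422 normalized counts in vehicle, 1488, 1557 and 1576 at 3 h, and 1435, 1608 and 1514 at 8 h. Neither OxA group overlapped vehicle. It was 1.15-fold higher at 3 h (log2 fold change 0.20, SE 0.05, adjusted p = 0.00481) and 1.12-fold higher at 8 h (log2 fold change 0.17, SE 0.05, adjusted p = 0.0218). The 8 h call was lost without 8 h replicate 2 (adjusted p = 0.14), vehicle replicate 1 (0.106) or vehicle replicate 2 (0.0786).

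*Cnot1* (chromosome 8, 95719451 to 95807464, minus strand), on which the other subunits assemble, had 6329, 6271 and 6074 normalized counts in vehicle, 6774, 6491 and 6777 at 3 h and 6782, 6446 and 6060 at 8 h. The 3 h samples lay above vehicle, and the 8 h samples spanned the vehicle range. Its 3 h difference passed the threshold narrowly (1.08-fold, log2 fold change 0.11, SE 0.04, adjusted p = 0.0443) and missed it when any one of the 6 samples was left out (adjusted p of 0.0641 without 3 h replicate 2 to 0.196 without 3 h replicate 3). It also missed it with DESeq2 (0.0594), with no filter on low counts (0.079) and with all 9 samples in 1 fit (0.0678). At 8 h it was 1.03-fold vehicle (adjusted p = 0.526).

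*Cnot6*, the other type of catalytic subunit (chromosome 11, 49671503 to 49712723, minus strand), had 1812, 1708 and 1897 normalized counts in vehicle, 1762, 2003 and 1980 at 3 h and 2003, 1945 and 1881 at 8 h. Its groups overlapped in every comparison. It did not pass at 3 h (log2 fold change 0.09, interval -0.03 to 0.20, adjusted p = 0.225) or at 8 h (0.10, interval 0.00 to 0.20, adjusted p = 0.136). Without 3 h replicate 1 it passed at 3 h (adjusted p = 0.0308), and without vehicle replicate 3 at 8 h (0.0487).

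*Pan3*, the subunit that ties the PAN2 nuclease to poly(A)-binding protein (chromosome 5, 147430161 to 147548502, plus strand), had 2661, 2510 and 2733 normalized counts in vehicle, 2820, 2873 and 2872 at 3 h and 2631, 2836 and 2781 at 8 h. The 3 h samples were the most alike of any group of this gene and lay above vehicle. The 3 h difference was 1.09-fold (log2 fold change 0.12, SE 0.05, adjusted p = 0.0417). It was lost without 3 h replicate 2 (adjusted p = 0.137), 3 h replicate 3 (0.141), vehicle replicate 1 (0.0913) or vehicle replicate 2 (0.215), with DESeq2 (0.0753) and with no filter on low counts (0.0647). At 8 h it was 1.04-fold vehicle (adjusted p = 0.405).

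*Dcp2*, the catalytic decapping enzyme (chromosome 18, 44380502 to 44424969, plus strand), had 3642, 3378 and 3671 normalized counts in vehicle, 3932, 3970 and 3848 at 3 h and 3724, 3957 and 4103 at 8 h. Neither OxA group overlapped vehicle. It was higher at 3 h (log2 fold change 0.14, SE 0.04, adjusted p = 0.0155) and higher at 8 h (0.13, SE 0.05, adjusted p = 0.0323). The 3 h call was lost without 3 h replicate 2 (adjusted p = 0.0792) or vehicle replicate 2 (0.119), and the 8 h call without 8 h replicate 2 (0.0889), 8 h replicate 3 (0.161) or vehicle replicate 2 (0.175) and with the DESeq2 Wald test (0.0535).

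*Elavl1* (chromosome 8, 4285382 to 4325413, minus strand), which stabilizes many AU-rich mRNAs, had 3138, 3005 and 3067 normalized counts in vehicle, 3247, 3504 and 3639 at 3 h and 3486, 3614 and 3521 at 8 h. Both OxA groups lay above vehicle. It was 1.13-fold higher at 3 h (log2 fold change 0.18, SE 0.05, adjusted p = 0.00453) and 1.15-fold higher at 8 h (0.20, SE 0.04, adjusted p = 0.00081). The 3 h call was lost without 3 h replicate 3 (adjusted p = 0.0626). The 8 h call was not lost under any of the 13 alternatives tried (adjusted p up to 0.0351).

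*Pum2*, a repressor that binds Pumilio elements and recruits CCR4-NOT (chromosome 12, 8674134 to 8752581, plus strand), had 5396, 5692 and 5710 normalized counts in vehicle, 6414, 6638 and 6600 at 3 h and 6406, 6447 and 5762 at 8 h. The OxA samples lay above vehicle at both times, with 8 h replicate 3 close to it. It was 1.17-fold higher at 3 h (log2 fold change 0.23, SE 0.04, adjusted p = 0.000122) and 1.11-fold higher at 8 h (0.14, SE 0.05, adjusted p = 0.0212). The 8 h call was lost without 8 h replicate 1 (adjusted p = 0.0654), 8 h replicate 2 (0.113) or vehicle replicate 1 (0.112).

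**Figure D3:**
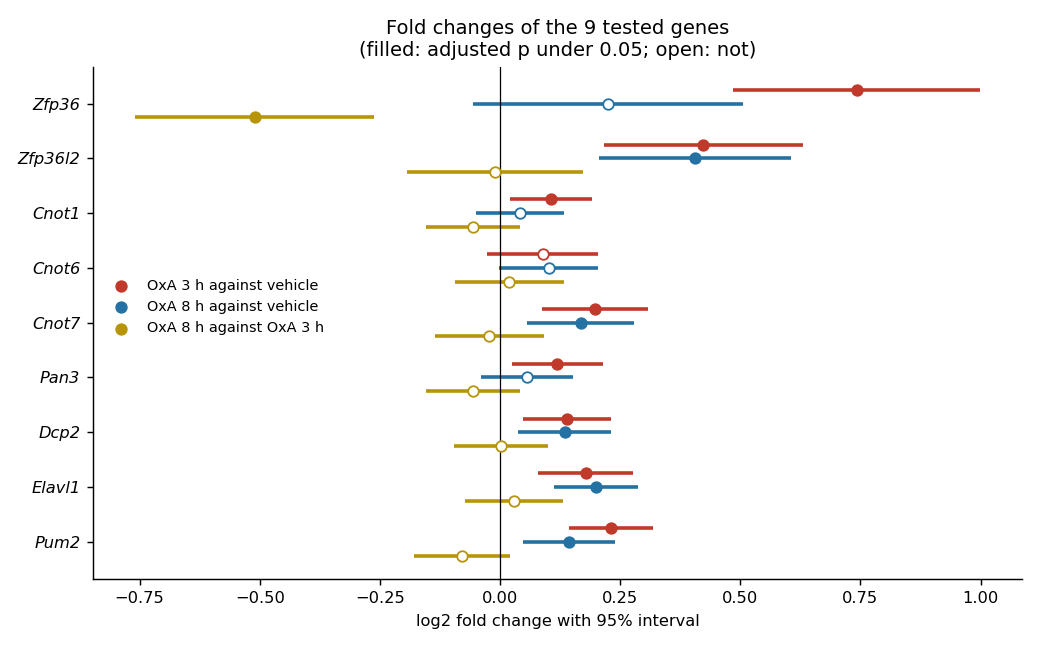
Log2 fold changes (horizontal axis) of the 9 tested members with 95% intervals, for OxA 3 h against vehicle, OxA 8 h against vehicle and OxA 8 h against OxA 3 h. Filled points passed an adjusted p of 0.05. Zfp36 at 3 h (0.74) and Zfp36l2 at 3 h (0.42) and 8 h (0.41) lie apart from the other members, whose values against vehicle are 0.04 to 0.23.

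In total, 8 of the 9 tested members were higher than vehicle at 3 h and 0 were lower, beside 38.9% of all 15352 genes tested that were called in either direction and 20.2% that were called higher. At 8 h 5 of 9 were higher and 0 lower (*Zfp36l2*, *Cnot7*, *Dcp2*, *Elavl1*, *Pum2*), beside 28.4% of 15407 genes called and 15.3% called higher. Between 8 h and 3 h 1 of 9 passed, *Zfp36*, which was lower at 8 h, beside 28% of 15278 genes called and 14.3% called lower. The samples of the compared groups did not overlap for 8 members at 3 h against vehicle, 5 at 8 h against vehicle and 1 at 8 h against 3 h, and this held for 48.1%, 41.2% and 40.5% of all genes tested. With 1 sample left out, the count at 3 h was 5 without 3 h replicate 2, without 3 h replicate 3 or without vehicle replicate 2. The count at 8 h was 2 without 8 h replicate 2 and 3 without vehicle replicate 1 or 2. The 10th member, *Zfp36l1*, did not pass the filter on low counts.

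The small rises depend on how the libraries are scaled and tested. With DESeq2 6 members passed at 3 h (*Cnot1* and *Pan3* did not) and 4 at 8 h (*Dcp2* did not). With upper-quartile scaling 4 members passed at 3 h (*Zfp36*, *Zfp36l2*, *Cnot7*, *Pum2*) and 2 at 8 h (*Zfp36l2*, *Elavl1*), and the share of higher genes among all genes called at 3 h moved from 52% to 39.5%, and at 8 h from 53.9% to 44.2%. On the deposited TPM, tested with limma on log2(TPM + 1), 3 members passed at 3 h (*Zfp36*, *Zfp36l2*, *Pum2*) and 2 at 8 h (*Zfp36l2*, *Elavl1*), with 36.3% and 40.6% of all called genes higher. On that scale *Cnot1* was 0.03 higher at 3 h (adjusted p = 0.636) and 0.01 lower at 8 h (a log2 difference of -0.0083, adjusted p = 0.919). *Zfp36* at 3 h, *Zfp36l2* at both times, *Elavl1* at 8 h and *Pum2* at 3 h passed under all 13 alternatives tried.

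The spread within groups differed between the members. *Zfp36*, with 106 to 192 raw counts per sample, had a coefficient of variation of 13.2% in vehicle, 6.25% at 3 h and 12.5% at 8 h, and its log2 fold change at 3 h had an SE of 0.124. *Zfp36l2* had coefficients of variation of 8.85%, 5.14% and 1.13%. *Cnot1*, with 5415 to 7672 counts, had 2.14%, 2.46% and 5.62%, and an SE of 0.0409 at 3 h.

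The other genes of the decay pathways were counted in 10 lists of 109 genes, the members included, of which 103 were tested. At 3 h 45 were higher and 13 lower than vehicle (56.3% called, beside 38.9% of all genes tested), with a median log2 fold change of 0.11 beside -0.00 over all genes tested. At 8 h 35 were higher and 7 lower (40.8% called, beside 28.4% of all genes; median 0.09 beside -0.01). In single lists the share called ranged from 31.2% (exosome and SKI, under the share of all genes) to 87.5% (CCR4-NOT recruiters) at 3 h, and from 15.8% (decapping and 5′ decay) to 87.5% (CCR4-NOT recruiters) at 8 h. At 8 h the CCR4-NOT list (27.3%) was also under the share of all genes, and the PAN2-PAN3 (28.6%) and nonsense-mediated decay (30%) lists were close to it. Without the members, 37 of 94 were higher and 13 lower at 3 h, and 30 higher and 7 lower at 8 h. The shares of all genes, here and for the members, were not matched for count level, and genes with low counts were among them. With upper-quartile scaling the split was 35 higher and 20 lower at 3 h and 24 higher and 10 lower at 8 h, and on TPM 28 higher and 17 lower, and 18 higher and 7 lower.

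Among the 11 CCR4-NOT subunits, 5 were higher and 1 lower at 3 h and 3 were higher at 8 h (upper-quartile scaling gave 2 higher and 1 lower at 3 h and 0 at 8 h). The share called was 54.5% at 3 h and 27.3% at 8 h, beside 38.9% and 28.4% of all genes. *Cnot11*, a regulatory subunit, rose most, from 672 ± 31.9 normalized counts in vehicle to 990.2 ± 60.5 at 3 h (SD, n = 3, 1.48-fold, adjusted p = 1.78e-07). At 8 h it stood at 775 ± 61.7 (1.15-fold, adjusted p = 0.0248, lost without 8 h replicate 1 at 0.0508, 8 h replicate 2 at 0.148 or vehicle replicate 3 at 0.086), and it fell by 0.35 on the log2 scale between the times (adjusted p = 0.000459). *Cnot8*, the paralog of *Cnot7* with the same deadenylase role, was lower at 3 h. Its normalized counts were 776, 734 and 810 in vehicle and 701, 654 and 671 at 3 h (log2 fold change -0.19, SE 0.06, adjusted p = 0.021). That call was lost without 3 h replicate 2 (0.0721), vehicle replicate 1 (0.056) or vehicle replicate 3 (0.0946). In TPM the paralogs stood at 44.1 (*Cnot7*) and 46.3 (*Cnot8*) in vehicle and at 48.0 and 38.5 at 3 h.

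Of 8 tested adaptors that bring CCR4-NOT to mRNAs, 6 were higher and 1 lower at each time, the lower one being *Tob1* at 3 h and *Nanos1* at 8 h. That is 87.5% called at each time, beside 38.9% of all genes at 3 h and 28.4% at 8 h. *Samd4* (the mouse homolog of fly Smaug) had 1857, 1626 and 1927 normalized counts in vehicle, 4525, 4966 and 4837 at 3 h and 2728, 2540 and 2828 at 8 h, with no overlap between any groups. It was 2.65-fold higher at 3 h (adjusted p = 1.86e-14) and 1.49-fold higher at 8 h (adjusted p = 2.3e-07). The antiproliferative genes *Btg2* (1.59-fold, adjusted p = 2.47e-07) and *Btg1* (1.46-fold, adjusted p = 1.57e-06) were also higher at 3 h, whereas their relative *Tob1* fell by 0.58 on the log2 scale (adjusted p = 5.78e-06). At 8 h *Tob1* was not called (0.8945-fold, adjusted p = 0.131). *Nanos1*, not called at 3 h (adjusted p = 0.106), was lower at 8 h (0.83-fold, adjusted p = 0.000633).

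*Pan2*, the nuclease partner of *Pan3*, was lower at 3 h (693 ± 30.9 to 576 ± 10.7 normalized counts, log2 fold change -0.26, adjusted p = 0.00291), while *Pan3* was not lower. In the same list of 7 genes, 3 were higher and 2 lower at 3 h and 2 were higher at 8 h, among them the poly(A)-binding protein gene *Pabpc4* (1.50-fold at 8 h, adjusted p = 3.23e-08). In this list 71.4% were called at 3 h and 28.6% at 8 h, beside 38.9% and 28.4% of all genes. Of 19 decapping and 5′ decay genes, 5 were higher and 3 lower at 3 h (42.1% called) and 3 higher at 8 h (15.8% called). With upper-quartile scaling these became 2 higher and 5 lower, and 0 higher and 1 lower, so no direction is given for this list. *Ddx6*, the helicase that links CCR4-NOT to decapping, was 1.41-fold higher at 3 h (adjusted p = 2.18e-08), and *Dcp1b*, a cofactor of *Dcp2*, was lower (log2 fold change -0.51, adjusted p = 0.0124, and 0.0804 without vehicle replicate 1).

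Of 16 tested exosome and SKI genes, 3 were higher and 2 lower at 3 h and 7 higher and 1 lower at 8 h. That is 31.2% and 50% called, beside 38.9% and 28.4% of all genes. The exosome nuclease *Dis3* was at 1.56-fold (adjusted p = 9.35e-09) and then 1.25-fold (adjusted p = 0.000402). Between 8 h and 3 h, 7 genes of this list were higher and 3 lower, *Dis3* among the lower (62.5% called, beside 28% of all genes). *Exosc1*, for example, was at 1.017-fold at 3 h (adjusted p = 0.873) and at 1.296-fold at 8 h (adjusted p = 0.00243). Of 10 nonsense-mediated decay genes, 6 were higher at 3 h (60% called), or 4 higher and 2 lower with upper-quartile scaling. At 8 h 2 were higher and 1 lower (30% called). The AU-rich element binding list of 11 genes had 4 higher and 1 lower at 3 h (45.5% called). At 8 h the list had 5 higher and 1 lower (54.5% called). In it *Tia1*, a translational repressor, fell by 0.56 at 3 h on the log2 scale (adjusted p = 1.88e-06) while its paralog *Tial1* was 1.21-fold higher (adjusted p = 0.000168).

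Endonucleases and Roquin proteins, which act on stem-loops rather than AU-rich elements, were in the list with the PUF proteins. There 6 of 8 tested genes were higher at 3 h and 4 at 8 h, and 0 were lower (2 were lower at 3 h with upper-quartile scaling). The share called was 75% and 50%, beside 38.9% and 28.4% of all genes. The regnase *Zc3h12c* was 2.06-fold higher at 3 h (adjusted p = 2.78e-12) and 1.57-fold higher at 8 h (adjusted p = 1.67e-08). *Rc3h1* (Roquin-1) had 1515, 1453 and 1488 normalized counts in vehicle, 2439, 2631 and 2445 at 3 h and 1694, 1720 and 1665 at 8 h, so that each group lay apart. It was 1.69-fold higher at 3 h (adjusted p = 1.1e-11) and 1.14-fold higher at 8 h (adjusted p = 0.00475, and 0.137 on TPM). Of 10 miRNA effectors and m6A readers, 5 were higher and 3 lower at 3 h (80% called). At 8 h 2 were higher and 3 lower (50% called). *Tnrc6b*, a scaffold of miRNA silencing, fell by 0.58 on the log2 scale at 3 h (adjusted p = 7.06e-09).

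**Figure D4:**
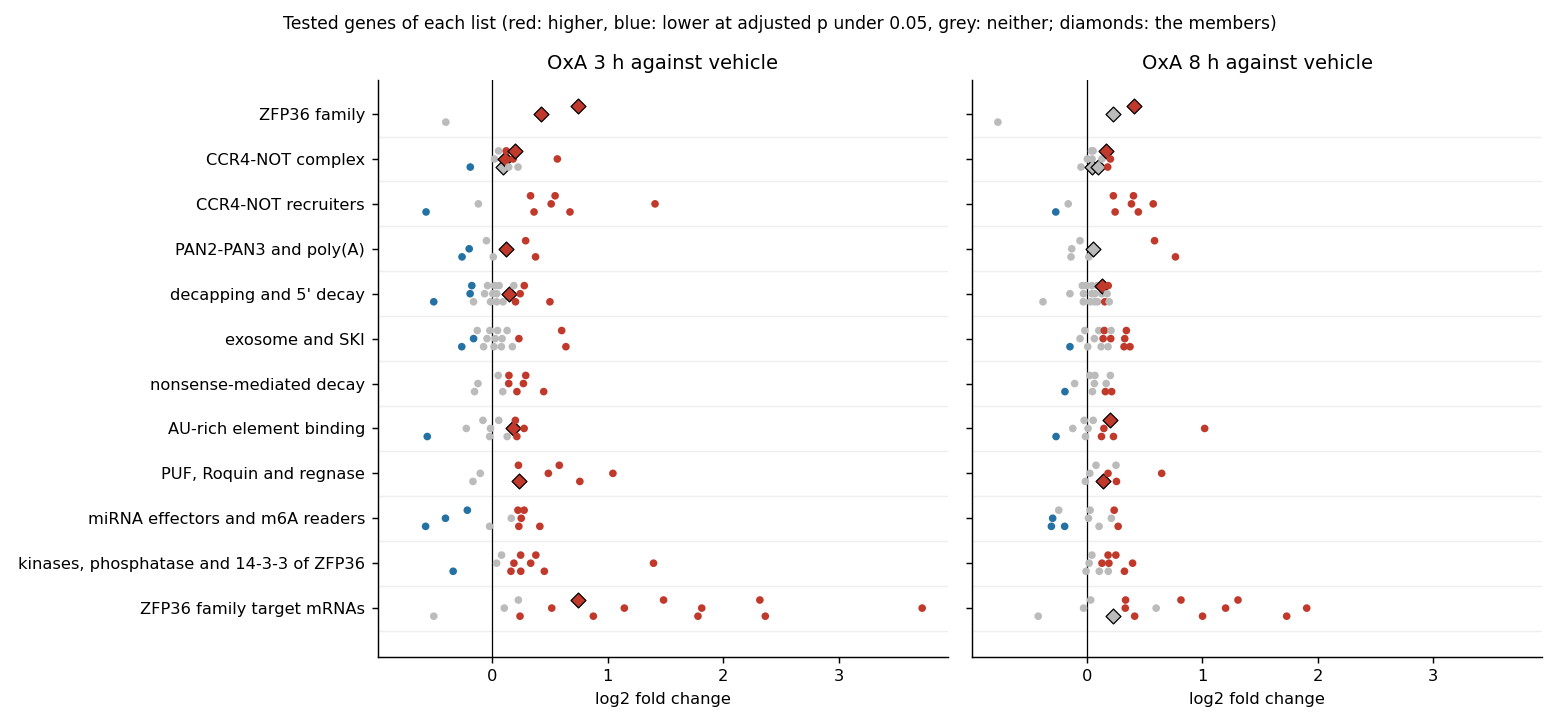
Log2 fold changes (horizontal axis) of the tested genes of each list, at 3 h (left) and 8 h (right) against vehicle. Red points are higher and blue points lower at an adjusted p under 0.05, grey points neither, and outlined diamonds are the members. Samd4 at 3 h (1.41) is the highest of the CCR4-NOT recruiters, and most decay genes lie near 0.

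Activity of ZFP36 proteins is set largely by phosphorylation, through the p38 kinase and MK2, after which 14-3-3 proteins bind. Such kinases, 14-3-3 proteins and phosphatase subunits were counted in a list of 11 genes. Of these, 8 were higher and 1 lower at 3 h and 6 were higher at 8 h. Of all genes tested, 20.2% were called higher at 3 h and 15.3% at 8 h. The phosphatase gene *Ppp2ca* was higher at 3 h (1.186-fold, adjusted p = 0.000121) and at 8 h (1.096-fold, adjusted p = 0.0206). The other phosphatase gene, *Ppp2r1a*, was not called at either time. *Mapkapk3*, a kinase related to MK2, rose from 96.5 ± 10.1 to 254 ± 42.3 normalized counts at 3 h (SD, n = 3, 2.63-fold, adjusted p = 1.2e-08), *Ywhag* (a 14-3-3 protein) was 1.37-fold higher (adjusted p = 4.99e-07), and *Mapk14* (p38 alpha) was lower (log2 fold change -0.34, adjusted p = 3.2e-06). The MK2 gene itself, *Mapkapk2*, was higher at 3 h (1.258-fold, adjusted p = 4.92e-06) and at 8 h (1.191-fold, adjusted p = 0.000222). At 8 h *Mapkapk3* (1.138-fold, adjusted p = 0.342) and *Mapk14* (1.014-fold, adjusted p = 0.799) were not called. Phosphorylation and protein levels were not measured.

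mRNAs known from other cell types as targets of the ZFP36 family were counted in a list of 23 (*Zfp36* among them), of which 14 were tested. Of these 14, 11 were higher at 3 h and 9 at 8 h, beside 20.2% and 15.3% of all genes called higher, and 0 were lower at either time, with a median log2 fold change of 1.01 at 3 h and 0.51 at 8 h beside -0.00 and -0.01 over all genes. Between 8 h and 3 h 9 of the 14 were lower and 0 higher, beside 14.3% of all genes called lower. *Zfp36* itself was counted among the 11 at 3 h and among these 9. *Lif*, a cytokine of the interleukin-6 family, had 7.64, 14.8 and 16.8 normalized counts in vehicle, 158, 176 and 181 at 3 h and 42.4, 41.3 and 47 at 8 h. It was 13.2-fold higher at 3 h (adjusted p = 1.66e-12) and 3.32-fold higher at 8 h (adjusted p = 3.62e-05). Group means of *Lif* were 13.07 in vehicle, 171.5 at 3 h and 43.58 at 8 h. It therefore reached the mean of 50 normalized counts used for naming genes only through the 3 h samples. *Il6*, also among the 11 at 3 h, had low counts too, with means of 8.774 in vehicle and 19.28 at 3 h. The filter on low counts can be met by the samples of a single group. *Lif* and *Il6* may therefore have entered the 3 h test only through the OxA samples, where they were high. Their places among the 11 of 14 are for this reason no support for a rise of the list. *Myc* was 5.15-fold higher at 3 h (adjusted p = 6.2e-08) and 3.75-fold at 8 h (adjusted p = 6.15e-12) and *Vegfa* 4.98-fold and 2.48-fold (adjusted p = 1.82e-07 and 9.96e-12). Many genes of this list are also known to be induced directly by growth factor signalling. The cause of their rise here was not tested, and mRNA stability was not measured.

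The genes with a profile closest to that of *Zfp36* over the 9 samples were ranked by the root mean square difference in log2 CPM, each gene taken relative to its vehicle mean, among the 11786 other genes whose normalized counts averaged 50 or more. This is a description, since the measure uses the same samples as the comparisons. The closest were *Cdk5r1* (0.109), an activator of the kinase CDK5, *Srebf2* (0.117), the master regulator of cholesterol synthesis, *Trio* (0.119), a guanine nucleotide exchange factor, *Rc3h1* (0.119), the Roquin-1 gene described above, and *Nfat5* (0.125), a factor of the osmotic response. Their log2 fold changes were 0.60 (*Nfat5*) to 0.77 (*Cdk5r1*) at 3 h and 0.18 (*Rc3h1*) to 0.25 (*Trio*) at 8 h, beside 0.74 and 0.22 for *Zfp36*. In their 3′ UTRs TATTTAT occurred 3 times in *Trio* and *Nfat5*, 2 times in *Rc3h1*, 1 time in *Cdk5r1* and 0 times in *Srebf2*.

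**Figure D5:**
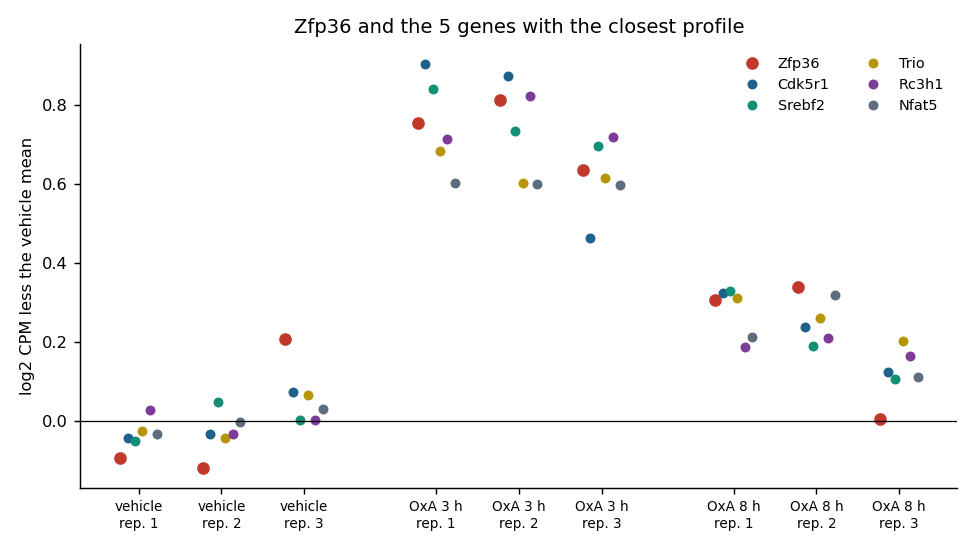
Log2 CPM relative to the vehicle mean (vertical axis) for Zfp36 and the 5 genes with the closest profiles, in each of the 9 samples. All 6 genes lie above 0.4 in each 3 h sample, and Zfp36 is at 0.006 in 8 h replicate 3, the lowest of the 6 there.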

How the data were processed

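Reads had been trimmed by the authors with Trimmomatic, aligned to mm10 with STAR 2.5.2a and assigned to genes with HTSeq 0.6.0, and the deposited counts are the unscaled whole numbers of reads per gene symbol. The annotation and the strand setting of that step are not given in the sources used here. The deposited TPM, made by the authors with a tool and gene lengths that are not given in the sources used here, served for levels between genes. The authors' normalized counts and their DESeq2 comparison tables (fold changes and p-values) were not used.

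Groups followed the sample labels. Each pair of groups was fitted on its own in edgeR 4.0.16 (R 4.3.3): filterByExpr, TMM scaling, a robust quasi-likelihood fit and glmQLFTest, with Benjamini-Hochberg adjustment over all genes kept and a threshold of 0.05. The SE is the size of the coefficient over the square root of F. The scripts were tested on simulated data. The methods state that the steps from plating to RNA clean-up were repeated to give 3 samples a group, and the labels do not tie a replicate number to a round. P-values set the difference between groups against the spread among the samples of a group, with no term for a round in the main fit. Samples of a group differed by more than sampling noise (chi-square per gene 1.93 to 5.20), and all 9 were kept. Depth was 16217786 to 20445364 counts, and limits for a count of 0 cover counting error only.

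Alternatives were other scaling factors, DESeq2 1.42.0, no filter on low counts, all 9 samples together, a replicate block, leaving out each sample and, chosen after seeing the data, limma 3.58.1 on log2(TPM + 1). The members and the gene lists were chosen with earlier results of these data known. The listed genes named, besides the members, were up to 4 per list with the largest log2 fold change among those called, at a mean of 50 normalized counts or more. Some others, among them *Nanos1*, *Ppp2ca*, *Il6*, *Elavl2* and *Elavl4*, were named outside this rule. Of 109 genes in the 10 decay lists, 108 were in the tables. Identity between the ZFP36 proteins was planned and not analysed here.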

Additional observations from a re-analysis of the deposited data

Results flagged for a closer look

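The level of *Zfp36* differed between the 8 h and the 3 h OxA samples. Its log2 fold change at 8 h against 3 h, fitted on these 6 samples, was -0.5102 (adjusted p = 0.00276, edgeR), with all 3 samples at 8 h lower than all 3 at 3 h, and it passed under all 13 alternatives tried (adjusted p of 0.000325 to 0.0199). With no vehicle sample at 3 h, a change in the effect of OxA and the time since the medium change cannot be told apart here. Groups of 3 samples were not tested for outlying values.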

How the results depend on the processing

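The number of members called at 3 h, 8 with TMM scaling, was 4 with upper-quartile factors, 3 on TPM and 5 to 8 when 1 sample was left out. At 8 h the number, 5, became 2 with upper-quartile factors, 2 on TPM and 2 to 6 when 1 sample was left out. Genes called in the decay lists at 8 h, 42 with TMM, were 25 on TPM. The cause of these changes was not tested. For the values that turned sign, *Cnot1* at 8 h against vehicle was -0.0083 on TPM and -4e-04 to 0.0825 when 1 sample was left out. For 8 h against 3 h, *Zfp36l2* was 0.016 with upper-quartile factors, 0.0111 on TPM and -0.0379 to 0.0267 when 1 sample was left out. *Cnot7* was 0.0043 with upper-quartile factors and -0.0666 to 0.019 when 1 sample was left out, and *Dcp2* -0.0023 with relative log expression factors and with DESeq2 and -0.0382 to 0.0399 when 1 sample was left out. *Cnot6* (-0.0378 to 0.0436) and *Elavl1* (-0.0157 to 0.0597) turned only when 1 sample was left out. None of these log2 values passed the test under any setting. With CPM in place of TPM, 1 of the 10 members, *Zfp36l1*, kept its place in the vehicle order. DESeq2 called 6 members at 3 h and 4 at 8 h. With the replicate block, 8, 5 and 1 members were called at 3 h, 8 h and between the times, as many as without it, and genes called in the decay lists went from 58, 42 and 31 to 62, 52 and 41. Over all genes tested, the number called went from 5973 to 6500 at 3 h and from 4377 to 5558 at 8 h. Samples with the same number had correlations of 0.008 to 0.162 (9 pairs) in their deviations from the group means, beside -0.117 to 0.07 for the 18 other pairs, and 7 of 9 samples were closest to their own number. This is a hint from the data that a number marks a shared round. The number was not taken as a pairing, because the labels do not say so and the correlations were not all over 0.1. At this depth *Zfp36l1* could not be tested.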

Other observations

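*Elavl4* (HuD), a neuronal relative of *Elavl1*, was singled out after its values were seen, and its mean lies under the 50 normalized counts used for naming genes. It had 34.4, 29.7 and 26.6 normalized counts in vehicle, 21.3, 24.0 and 31.7 after 3 h of OxA and 53.0, 66.5 and 66.0 after 8 h. The 8 h samples lay above all others, and the vehicle and 3 h samples overlapped. Its log2 fold change was 1.02 at 8 h against vehicle (adjusted p = 0.000448, edgeR) and 1.26 at 8 h against 3 h (adjusted p = 0.000201), while at 3 h it was -0.23 (adjusted p = 0.53). The 8 h difference from vehicle passed under all 13 alternatives tried, with adjusted p-values up to 0.0097. The other neuronal relatives did not rise at 8 h. *Elavl3* was lower than vehicle (0.831-fold, adjusted p = 0.00477, edgeR), and *Elavl2* was not called (1.007-fold, adjusted p = 0.971). In vehicle *Elavl3* stood at 19.5 TPM, *Elavl2* at 1.91 and *Elavl4* at 0.795.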
